A study of Homo sapiens with 12 samples.

Results

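The ID genes ID1 to ID4 were described in HK-2 cells together with the inhibitory SMAD genes SMAD6 and SMAD7 and the ligand genes TGFB1, TGFB2 and BMP4. These 9 genes were taken by symbol from a table of 20286 human Ensembl genes, and 8 of them passed a filter on low counts that kept 13512 genes. ID4 did not pass. The set was chosen by measured values of these same libraries, the lower level of ID2 after S100A9 than after the other proteins. Values of S100A9 against S100A8 and against S100A8/S100A9 are therefore given as a description.

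HK-2 is an immortalised line of human kidney tubule epithelium, labelled wild type. Cells grown in DMEM with fetal bovine serum were exposed for 48 h to 1 of 3 recombinant proteins, S100A8, S100A9 or S100A8/S100A9. The printed dose is 5 mg/mL, a unit that could not be checked. Control cells received phosphate-buffered saline in the matching amount. Each of the 4 groups held 3 libraries of oligo(dT)-enriched RNA. The labels do not say whether replicates were separate cultures, so every p-value here reflects variation among these libraries alone, and that variation may be technical. Of 11 proximal tubule markers, GGT1 and PAX8 had a mean of at least 1 FPKM, and SLC22A6 was at 0 in every library. Of 7 epithelial markers, 6 reached that level: KRT7, KRT8, KRT18, KRT19, EPCAM and the cadherin gene CDH2, at 42.8 FPKM. The cadherin gene CDH1 was below it, at 0.772 FPKM. Leukocyte and endothelial markers summed to at most 0.62 and 0.44 FPKM. Of 6 fibroblast markers, LUM (33.0 FPKM) and COL1A1 (2.28 FPKM) reached 1 FPKM, COL1A2 was at 0 in every library, and DCN and COL3A1 were near 0. In these bulk samples fewer expressing cells and less RNA per cell cannot be told apart.

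ID proteins are helix-loop-helix proteins without a DNA-binding basic region. They pair with E proteins and related basic helix-loop-helix factors and keep them off DNA. Transcription of ID genes is a classical readout of bone morphogenetic protein (BMP) signalling: BMP ligands bind paired serine/threonine kinase receptors, these phosphorylate SMAD1, SMAD5 and SMAD9, and SMAD4 joins them in the nucleus. Transforming growth factor beta (TGF-beta) signals through SMAD2 and SMAD3, and SMAD6 and SMAD7 are induced by the pathway and feed back on it. In kidney tubules TGF-beta is known for its link to fibrosis, and BMP signalling for opposing it.

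Promoters of ID1, ID2, ID3 and SMAD6 are shown because these genes had the lowest fitted values against control after S100A9. Each window runs from 250 bases before to 50 bases after a RefSeq start site (GRCh38.p14), on the strand of the gene. Capitals mark GTCT or its reverse complement AGAC, the core of the SMAD binding element. The windows are chr20:31605039-31605338 (ID1, plus strand), chr2:8681806-8682105 (ID2, plus strand), chr1:23559452-23559751 (ID3, minus strand) and chr15:66701986-66702285 (SMAD6, plus strand).
ID1: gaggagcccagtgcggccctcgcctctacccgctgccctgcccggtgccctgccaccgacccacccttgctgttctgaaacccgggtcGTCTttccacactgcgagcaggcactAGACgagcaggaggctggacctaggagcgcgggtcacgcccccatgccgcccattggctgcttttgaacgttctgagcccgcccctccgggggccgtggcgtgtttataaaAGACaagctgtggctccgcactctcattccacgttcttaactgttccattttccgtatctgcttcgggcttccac
ID2: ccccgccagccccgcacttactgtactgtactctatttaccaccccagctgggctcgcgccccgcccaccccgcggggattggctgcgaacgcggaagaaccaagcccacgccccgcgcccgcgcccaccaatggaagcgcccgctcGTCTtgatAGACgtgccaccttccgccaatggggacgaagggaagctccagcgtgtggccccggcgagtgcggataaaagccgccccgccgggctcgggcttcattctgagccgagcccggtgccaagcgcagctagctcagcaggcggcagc
ID3: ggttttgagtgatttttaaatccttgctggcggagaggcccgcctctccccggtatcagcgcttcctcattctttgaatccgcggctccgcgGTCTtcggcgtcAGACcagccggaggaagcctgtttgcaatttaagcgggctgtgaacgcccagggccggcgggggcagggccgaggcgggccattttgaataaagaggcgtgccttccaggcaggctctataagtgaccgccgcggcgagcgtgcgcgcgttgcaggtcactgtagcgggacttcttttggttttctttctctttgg
SMAD6: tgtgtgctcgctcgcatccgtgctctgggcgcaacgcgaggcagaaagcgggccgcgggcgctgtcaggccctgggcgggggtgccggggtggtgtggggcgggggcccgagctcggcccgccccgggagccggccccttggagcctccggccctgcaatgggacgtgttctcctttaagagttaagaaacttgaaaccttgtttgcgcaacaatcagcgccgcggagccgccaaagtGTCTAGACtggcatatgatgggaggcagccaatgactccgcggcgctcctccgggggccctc

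GTCT on either strand matched 3 times in the ID1 window and 2 times in each of the other 3, against a mean of 1.93 matches in 35116 RefSeq promoters, of which 84.0% held at least 1. The full palindrome GTCTAGAC, in which a GTCT and an AGAC abut, was found in the SMAD6 window only among the member windows. It starts 12 bases before the start site, and 0.2% of all promoters held it. GGCGCC, a GC-rich motif bound by BMP-activated SMADs, had no match in the 4 windows and was present in 19.2% of promoters. CANNTG, the E-box bound by the E proteins that ID proteins sequester, matched once in the ID2 window (CAGCTG) and once in that of SMAD6 (CATATG), against 68.7% of promoters with a match. CCAAT on either strand matched 3 times in the ID2 window, and 34.6% of promoters held it. All 9 members had a RefSeq promoter entry, and enhancers farther upstream lie outside these windows.

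Levels per length are given first, in FPKM, the authors' values, which are scaled to transcript length and library size. TGFB2 was the highest member, at 42.6 ± 2.05 FPKM (SD over all 12 libraries). ID1 (23.4 ± 2.66) and ID2 (22.9 ± 2.73) did not differ beyond their spread, with ID1 above ID2 in 7 of 12 libraries. TGFB1 followed at 18.1 ± 0.907 FPKM, below ID2 in 11 of 12 libraries. ID3 (12.6 ± 2.36) and SMAD7 (11.3 ± 0.902) overlapped, with ID3 higher in 7 of 12. BMP4 at 2.30 ± 0.296 and SMAD6 at 1.27 ± 0.260 FPKM were in the same order in all 12 libraries. ID4 was at the edge of detection, with 1 to 11 counts a library and 0.0917 ± 0.0413 FPKM.

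All levels from here on are CPM, counts scaled to library size with TMM factors, and compare a gene only with itself. ID2, on chromosome 2 from 8678845 to 8684453 in GENCODE release 29 (GRCh38), was at 29.5, 29.1 and 29.2 CPM in control replicates 1 to 3. The S100A8 libraries were at 28.3, 32.3 and 30.8 CPM and the S100A8/S100A9 libraries at 29.7, 31.4 and 28.7. The S100A9 libraries were at 24.7, 22.8 and 24.4 CPM. All 3 S100A9 libraries lay below the other 9, with a gap between 24.7 and 28.3 CPM. ID2 was chosen by its low level in these libraries, so this is a description. The share of all genes separated from the other 9 libraries was not computed. Against control, S100A8 or S100A8/S100A9 taken singly, 12% to 12.5% of all genes tested were separated from S100A9 in either direction. The SD among controls was 0.57% of their mean, below the 4.46% that counting error gives at the mean of 503 counts, while the spread pooled over the 4 groups was 4.64%. The summed FPKM of the 7 epithelial markers, KRT7 among them, was also lowest after S100A9, at 740 to 775 against 780 to 824 in the other groups, and its part in the ID values was not tested. The fibroblast markers summed to 30.4 to 36.1 FPKM after S100A9, 36.1 to 38.3 in control, 31.7 to 38.1 after S100A8 and 34.5 to 40.4 after S100A8/S100A9. Their 3 tested genes all had fitted values below control after S100A9 (median -0.22 on the log2 scale) and after S100A8 (median -0.32). After S100A8/S100A9 the median was -0.18, with 1 gene above control. In each arm 0 were called, and the part of these markers was not tested either.

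ID1 (chromosome 20, 31605283 to 31606515) was at 25.7, 24.8 and 20.1 CPM in control and at 21.7, 19.9 and 19.3 after S100A9. Control replicate 3 therefore lay among the S100A9 libraries. After S100A8 ID1 was at 23.1, 26.0 and 25.2 CPM, and after S100A8/S100A9 at 27.4, 23.7 and 23.8. The S100A9 libraries lay below all 6 of these.

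ID3 (chromosome 1, 23557918 to 23559794) was at 11.9, 14.2 and 10.8 CPM in control, 12.8, 16.7 and 13.9 after S100A8, 9.60, 11.6 and 9.11 after S100A9, and 10.3, 12.9 and 10.4 after S100A8/S100A9. Replicate 2 was the highest library in all 4 groups, and the groups overlapped except S100A9 with S100A8. Among libraries with the same number, S100A9 was the lowest of the 4 in 3 of 3 numbers for ID1, ID2 and ID3 alike. For ID2 this restates how the set was chosen. The share of all genes with this pattern was not computed, and nothing is read from the count. ID3 was above control after S100A8 and below it after S100A8/S100A9 in 3 of 3 numbers. The pooled spread of ID3 within groups was 13.9%, against a counting error of 6.87%.

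**Figure D1:**
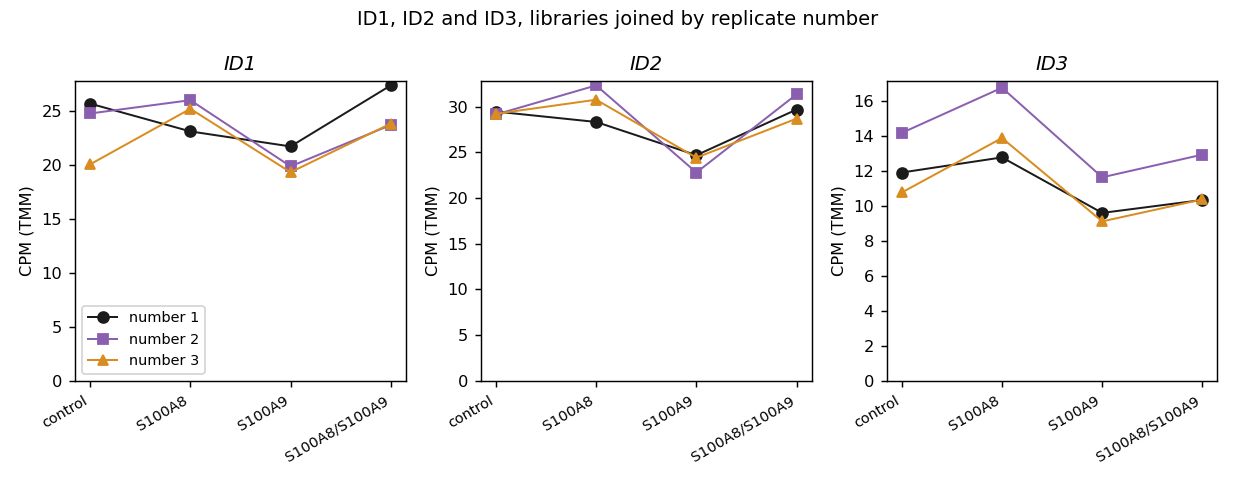
CPM of ID1, ID2 and ID3 (vertical axis, from 0) in the 4 groups (horizontal axis), with libraries of the same replicate number joined by a line. S100A9 is the lowest of the 4 groups on each line, and for ID3 the line of number 2 lies above the others in each group. ID2 was chosen by its low level after S100A9, so its lines are a description.

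ID4 (chromosome 6, 19837386 to 19840684) had 5, 5 and 6 counts in the control libraries and 9, 9 and 5 in those of S100A8. S100A9 gave 8, 1 and 7 counts, and S100A8/S100A9 gave 4, 4 and 11. These counts give a counting error of 40.3% a library. ID4 failed the filter and was not tested, and the groups overlapped.

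SMAD6 encodes an inhibitory SMAD that acts mainly on BMP receptors (chromosome 15, 66702228 to 66782848). It was at 5.78, 4.64 and 5.15 CPM in control, 5.41, 4.19 and 4.64 after S100A8, 4.04, 4.32 and 4.17 after S100A9, and 6.02, 3.83 and 3.40 after S100A8/S100A9. The S100A9 libraries lay below the 3 controls but within the range of the S100A8/S100A9 libraries. With 64 to 124 counts a library, its counting error was 11.03%.

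SMAD7, which inhibits both TGF-beta and BMP receptors, was higher and steadier (chromosome 18, 48919853 to 48952052). It was at 37.9, 39.0 and 38.5 CPM in control, 36.4, 39.0 and 37.2 after S100A8, 38.2, 34.7 and 35.0 after S100A9, and 40.9, 35.8 and 42.5 after S100A8/S100A9. Each treated group overlapped the controls.

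Among the ligands, TGFB2 (chromosome 1, 218346235 to 218444619) ranged from 225 to 261 CPM over all libraries, with group means between 236 and 248. TGFB1 (chromosome 19, 41301587 to 41353911) was at 49.2, 49.8 and 55.3 CPM in control, 49.9, 47.0 and 46.6 after S100A8, 50.5, 54.1 and 50.3 after S100A9, and 50.3, 49.3 and 47.5 after S100A8/S100A9. Unlike the ID genes, it was higher in the 3 S100A9 libraries than in the 6 libraries of S100A8 and S100A8/S100A9, although the nearest pair was 50.33 against 50.26 CPM. TGFB1 shares its locus with opposite-strand genes, among them HNRNPUL1 at 265 CPM, and the library protocol does not mention strand marking, so reads from a shared stretch could not be told apart. The same holds for ID2, which overlaps the antisense gene ID2-AS1, and for ID4, which overlaps AL022068.1. Neither antisense gene is among the deposited genes, so their levels are not known. BMP4 (chromosome 14, 53949736 to 53958761) was at 3.97, 3.57 and 3.68 CPM in control and at 3.86, 2.62 and 3.79 after S100A9, where replicate 2 was the lowest of all libraries. The other 6 BMP4 values lay between 3.31 and 3.77 CPM.

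**Figure D2:**
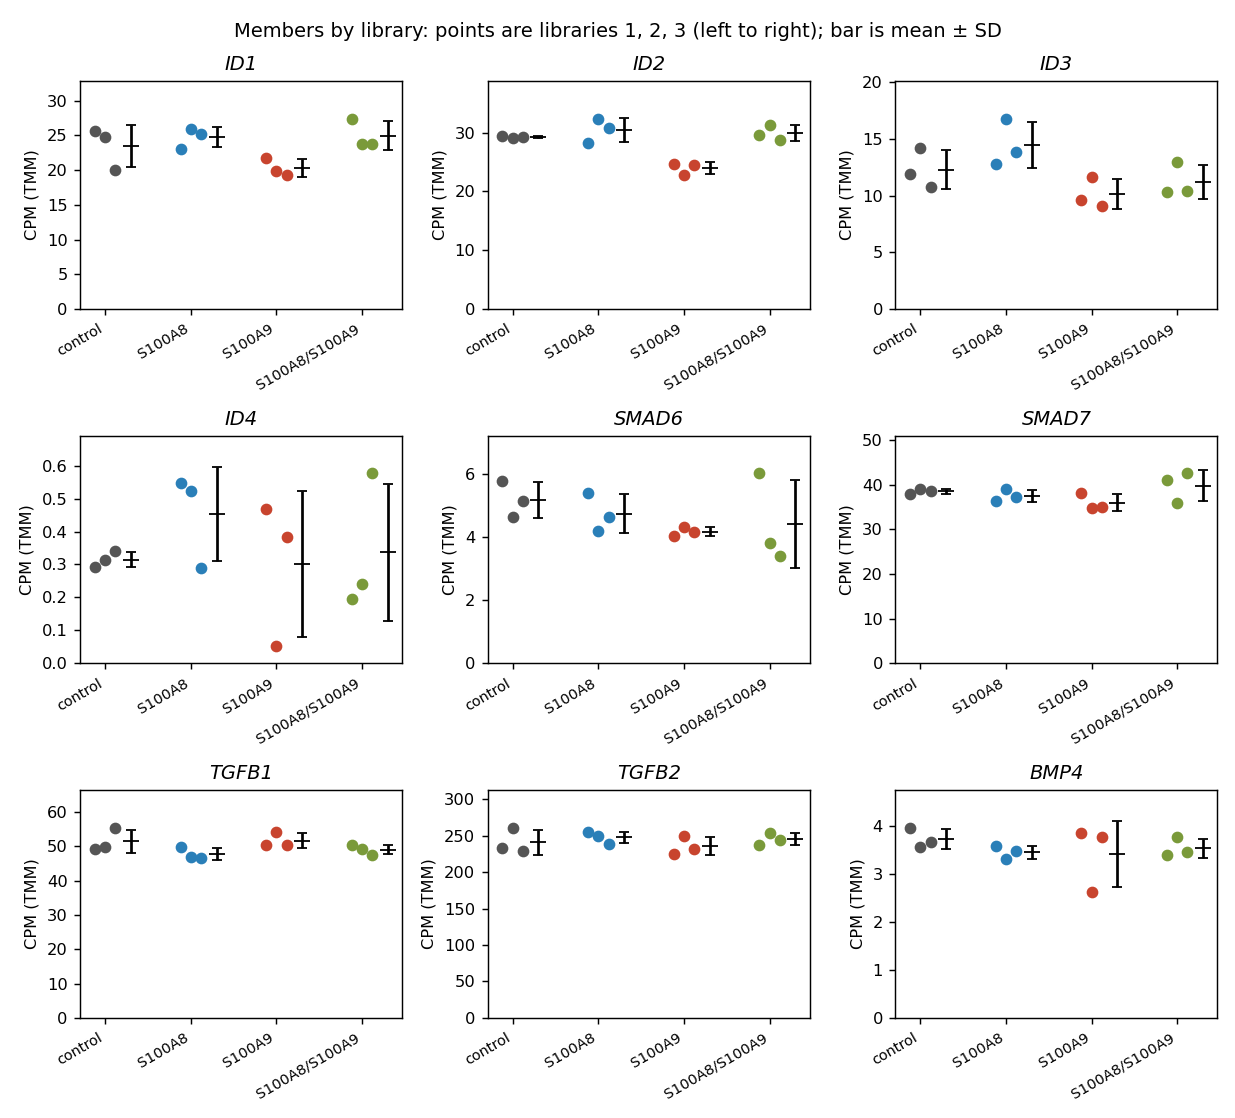
TMM-scaled CPM of each of the 9 members (vertical axes, from 0) by group, 1 point a library in the order of replicate numbers, with mean ± SD beside them. ID2 after S100A9 lies between 22.8 and 24.7 CPM, below all other libraries, while TGFB2 lies between 225 and 261 CPM throughout and ID4 stays under 0.6 CPM. ID2 was chosen by its low level after S100A9.

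S100A9 was compared with control to ask which of these transcripts differ after this subunit alone. Of the 8 members tested, 7 had a fitted value below control, of which TGFB2 and BMP4 changed sign without 1 library. TGFB1 lay at 0.01. The median log2 difference was -0.17, beside 0 over all genes. The members were chosen through ID2 in these S100A9 libraries, and with earlier results known, so this count and median in part restate that choice. None passed the quasi-likelihood test of edgeR, adjusted over all genes by Benjamini-Hochberg, and 0 passed in DESeq2 or in limma on FPKM. ID1, ID2 and ID3 had an unadjusted p under 0.05, as 5.85% of all genes did. In this comparison 20 of 13512 genes passed, or 0.148%, and 42 in a fit blocked on replicate number, in which no member passed either.

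ID2 was lower after S100A9 than in control by a log2 difference of -0.29 (SE 0.07, 95% interval -0.43 to -0.15, edgeR adjusted p = 0.125). Over the alternatives the adjusted p ranged from 0.0623, in the edgeR fit blocked on replicate number, to 0.562, with limma on log2(FPKM + 1). The estimate ranged from -0.31 to -0.24. These are the S100A9 libraries in which ID2 was chosen, so the estimate is not independent of that choice. ID1 differed by -0.21 (SE 0.09, 95% interval -0.40 to -0.02, edgeR adjusted p = 0.782) by -0.31 without control replicate 3, and by -0.14 without control replicate 1. ID3 differed by -0.27 (SE 0.13, 95% interval -0.542 to -0.00416, edgeR adjusted p = 0.838) and by -0.16 without control replicate 2. SMAD6 had the lowest estimate, -0.31, with the widest interval of the 4 (-0.69 to 0.06), and was at -0.17 with limma on log2(FPKM + 1).

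SMAD7 differed from control by -0.10 (95% interval -0.23 to 0.04), TGFB2 by -0.03 (-0.13 to 0.07), TGFB1 by 0.01 (-0.11 to 0.12) and BMP4 by -0.13 (-0.50 to 0.23). For TGFB1 and TGFB2 the intervals reach at most 0.13 from 0 on the log2 scale, and that of BMP4 reaches 0.50. The signs of these 3 rested on single libraries: BMP4 was at 0.03 without S100A9 replicate 2, TGFB2 at 0.03 without control replicate 2, and TGFB1 at -0.03 without S100A9 replicate 2, -0.02 without control replicate 1 and -0.02 without control replicate 2. ID2 and SMAD6 were the 2 of 8 members with all 3 S100A9 libraries on 1 side of all 3 controls. Over all genes tested, 12% were separated in this way in either direction.

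S100A8 was compared with control in the same way. Members lay on both sides of 0, with 4 higher and 4 lower and a median log2 difference of 0.00. The largest value was that of ID3, 0.24 (95% interval -0.02 to 0.50), which fell to 0.12 without S100A8 replicate 2 and to 0.15 without control replicate 3, and was 0.35 without control replicate 2. ID1 differed by 0.08 (-0.10 to 0.26), with a changed sign without control replicate 3 (-0.03), and ID2 by 0.06 (-0.08 to 0.20). ID2 was at 0.01 without S100A8 replicate 2 and at 0.11 without S100A8 replicate 1. TGFB1 differed by -0.11 (-0.23 to 0.01), and by -0.05 without control replicate 3. No member passed edgeR's test, none had an unadjusted p under 0.05, and 0 passed in DESeq2 or limma, beside 0.0074% of all genes called by edgeR, which is 1 gene, or 2 with the replicate block. Likewise 0 of 8 members were separated from control, beside 8.54% of genes.

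After S100A8/S100A9, 4 members were above control and 4 below, with a median of -0.02. ID1 differed by 0.09 (95% interval -0.09 to 0.27), which became -0.01 without control replicate 3, and ID2 by 0.03 (-0.11 to 0.17). ID3 differed by -0.13 (-0.40 to 0.13), and by -0.02 without control replicate 2. SMAD6 differed by -0.22 (-0.60 to 0.15), by -0.53 without S100A8/S100A9 replicate 1, the highest of all 12 libraries, and by -0.06 without replicate 3. No member passed edgeR's test, none had an unadjusted p under 0.05, and DESeq2 and limma called none. Of all genes 0% were called by edgeR, 10.7% were separated, and 0 of the members were. The 3 comparisons share the same control libraries.

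**Figure D3:**
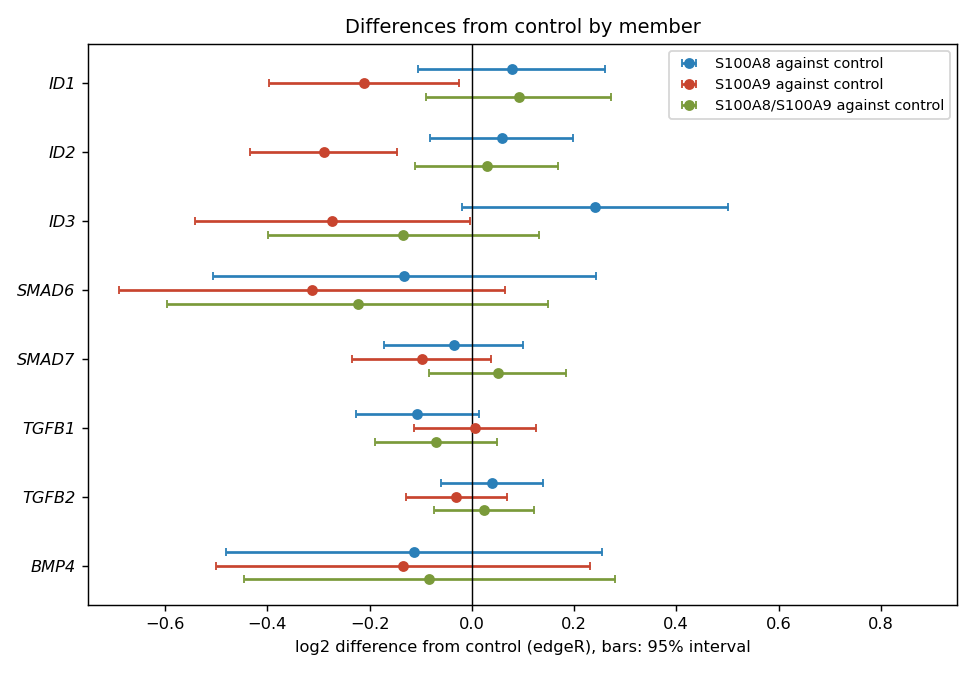
Fitted log2 difference from control (horizontal axis) of the 8 tested members after S100A8, S100A9 and S100A8/S100A9, with 95% intervals. After S100A9 the intervals of ID1, ID2 and ID3 end below 0, that of ID3 at -0.00416, and for TGFB1 and TGFB2 all 3 intervals include 0. The intervals are not adjusted for the number of genes tested, and no member passed edgeR's adjusted test. ID2 was chosen by its level in these S100A9 libraries.

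The preparation that names both subunits was set directly against S100A8. ID3 was the member with the largest difference, -0.37 (SE 0.13, 95% interval -0.63 to -0.11). It did not pass edgeR's test over all genes (adjusted p = 0.980), although its unadjusted p was 0.0065, and it ranged from -0.48 to -0.26 over the alternatives. ID1 differed by 0.01 (-0.17 to 0.19) and ID2 by -0.03 (-0.17 to 0.11). No member passed in edgeR, DESeq2 or limma, and 1 had an unadjusted p under 0.05, as 4.43% of all genes did. Of all genes 0% were called by edgeR and 9% were separated, and of the members 0 were.

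The remaining comparisons are those from which ID2 was taken, and their values are a description. Against S100A8, S100A9 differed by -0.35 (SE 0.07) for ID2, -0.51 (SE 0.13) for ID3, -0.29 (SE 0.09) for ID1, -0.18 (SE 0.19) for SMAD6 and -0.06 (SE 0.07) for SMAD7. TGFB2 differed by -0.07 (SE 0.05), BMP4 by -0.02 (SE 0.18; 0.14 without S100A9 replicate 2) and TGFB1 by 0.11 (SE 0.06). In CPM, ID2, ID3 and ID1 were lower and TGFB1 was higher without overlap, beside 12.5% of all genes separated in either direction. In FPKM TGFB1 overlapped, with S100A8 replicate 1 at 18.21 above S100A9 replicate 1 at 18.1.

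Against S100A8/S100A9, S100A9 differed by -0.32 (SE 0.07) for ID2, -0.30 (SE 0.09) for ID1, -0.14 (SE 0.13) for ID3, -0.15 (SE 0.07) for SMAD7 and -0.09 (SE 0.18) for SMAD6. SMAD6 was at 0.21 without S100A8/S100A9 replicate 1 and at -0.25 without replicate 3 of that group. ID3 was at -0.03 without S100A8/S100A9 replicate 2 and at -0.26 without S100A9 replicate 2. The ligands TGFB2, BMP4 and TGFB1 differed by -0.05, -0.05 and 0.08, and BMP4 by 0.11 without S100A9 replicate 2. ID2 and ID1 were lower and TGFB1 was higher without overlap, beside 12.5% of all genes.

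ID2 was the single member called by edgeR in each of these comparisons, beside 0.185% of genes against S100A8 and 0.252% against S100A8/S100A9, and nothing is read from this. With the replicate block ID3 was called against S100A8 as well (-0.52). Against S100A8, ID2 was no longer called without S100A8 replicate 2 (-0.30) or 3 (-0.34) or without S100A9 replicate 2 (-0.31) or 3 (-0.36). Against S100A8/S100A9 it was no longer called when any of the 6 libraries was left out, with values from -0.35 to -0.29. The estimate ranged from -0.40 to -0.30 and from -0.35 to -0.29 over all alternatives. These reuse the libraries in which ID2 was chosen, so the ranges are a description too.

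FPKM and counts differed in how well they tracked each other. The FPKM value per CPM should be constant for a gene of fixed length, apart from a factor common to each library. After removing that factor it varied over libraries by 1.01-fold for ID3 and 1.02-fold for ID1. It varied by 1.15-fold for ID2, 1.19-fold for SMAD6, 1.23-fold for SMAD7 and 1.37-fold for BMP4. The range was smaller than that of ID2 in 69.4% of 9909 genes. In FPKM, ID2 was at 23.7, 22.5 and 22.6 in control, 22.0, 26.3 and 27.2 after S100A8, 18.9, 18.1 and 21.0 after S100A9, and 24.9, 24.7 and 23.3 after S100A8/S100A9. The S100A9 libraries were again below the other 9, by a narrower gap, and ID2 was chosen by its level in them. With limma on log2(FPKM + 1), ID2 was called in none of these comparisons.

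The rest of the pathway was described by lists, which were drawn up with earlier results of these data known. Among 18 ligand genes 10 were tested. INHBA, a subunit of activins, had the highest level, at 74.2 FPKM over the 12 libraries, above TGFB2 and TGFB1. After S100A9 0 ligands rose and 0 fell by edgeR's test, the median log2 difference was 0.00 and INHBA differed by 0.01 (95% interval -0.23 to 0.26). BMP7, known for its role in kidney epithelium, was near 0 with a mean of 0.00583 FPKM.

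Of 14 receptor genes 12 were tested, led by BMPR2 at 17.8, TGFBR2 at 13.6 and BMPR1A at 13.4 FPKM. None rose or fell against control in the 3 arms by edgeR's test. After S100A9, 2 of the 12 lay above 0, with a median of -0.04 and a lowest value of -0.18 for TGFBR1, the type I receptor of TGF-beta (95% interval -0.35 to -0.01). TGFBR1 differed by -0.17 (-0.34 to 0.00) after S100A8/S100A9 and by 0.03 (-0.14 to 0.20) after S100A8.

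All 6 SMAD transducers were tested and 0 passed in any arm. SMAD2 was at 39.4, SMAD3 at 28.5 and SMAD4 at 27.4 FPKM. After S100A9, SMAD3 differed by 0.10 (95% interval 0.01 to 0.19) and SMAD4 by -0.11 (-0.27 to 0.05), and the list's median was -0.01. Of the 10 intracellular inhibitors, SMAD6 and SMAD7 among them, 0 passed. The SMAD co-repressor gene TGIF1, the most abundant at 86.4 FPKM, differed by 0.12 (0.04 to 0.21, edgeR adjusted p = 0.593) after S100A9. PMEPA1, which sequesters receptor SMADs, and SKIL, a SMAD co-repressor, differed by -0.05 and -0.04.

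Secreted antagonists and latency proteins included GREM1, a BMP antagonist and, at 218 FPKM, the most abundant transcript of the 6 pathway lists that are not target lists. Of 16 genes 13 were tested and 0 passed in any arm. GREM1 differed from control by 0.09 (95% interval 0.01 to 0.16, edgeR adjusted p = 0.775) after S100A9, by 0.00 (-0.08 to 0.08) after S100A8 and by 0.04 (-0.04 to 0.11) after S100A8/S100A9. FBN1, the matrix protein fibrillin that holds latent TGF-beta complexes, had a mean of 388 CPM after S100A9 beside 427 in control libraries. Its log2 difference was -0.14 (SE 0.04, edgeR adjusted p = 0.163). FSTL3, an activin antagonist, differed by 0.10, 0.12 and 0.12 after S100A9, S100A8 and S100A8/S100A9. NOG and CHRD, other BMP antagonists, did not pass the filter.

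**Figure D4:**
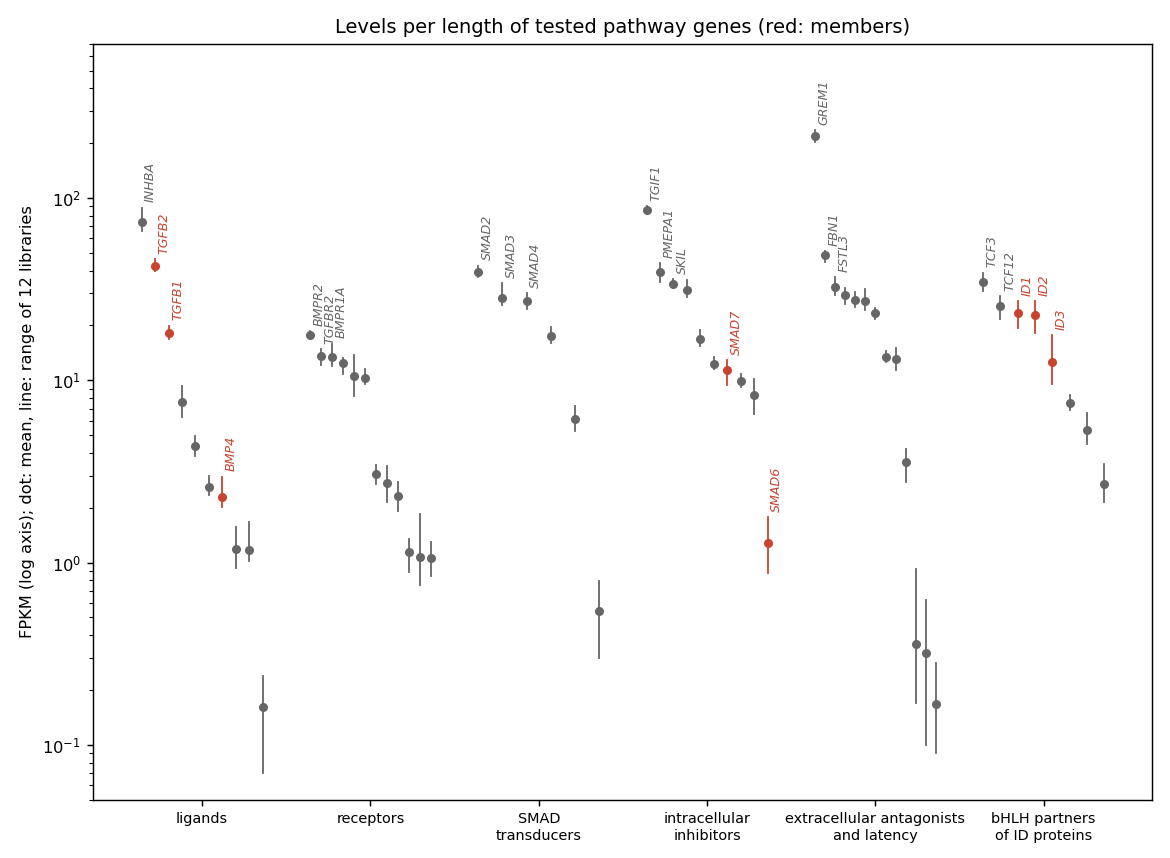
FPKM (log axis) of the tested genes of 6 lists (horizontal axis; the target lists are not drawn), with the mean as a dot and the range over 12 libraries as a line; members are red, and the 3 most abundant genes of a list are named. GREM1 at 218 FPKM is the highest, and BMP4 and SMAD6 lie low in their lists at 2.30 and 1.27 FPKM.

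Among the partners of ID proteins, the E protein genes TCF3 and TCF12 were at 34.7 and 25.6 FPKM, and TCF4, also an E protein gene, was at 2.69 FPKM. The repressor genes HES1 and HEY1 were at 7.49 and 5.35 FPKM, and TCF4, HES1 and HEY1 lay below the mean levels of ID1, ID2 and ID3. After S100A9, TCF3 differed from control by 0.06 (95% interval -0.03 to 0.16) and TCF12 by -0.05 (-0.16 to 0.06). TCF3 was highest after S100A8/S100A9, at 91.1 CPM beside 81.4 in control libraries, or 0.16 on the log2 scale (SE 0.05, edgeR adjusted p = 0.630). HEY1, a repressor of the helix-loop-helix family, was at 10.5 CPM there and at 13.5 in control (-0.36, SE 0.11, edgeR adjusted p = 0.657). HEY1 was also below control after S100A8 (-0.27). After S100A9 its mean was 5.56 FPKM, beside 6.05 in control. Of the 8 tested genes of this list, which holds ID1, ID2 and ID3, 0 passed against control in any arm.

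Known BMP and TGF-beta target genes were described last. Of 18 BMP targets 15 were tested. After S100A9 3 of these lay above 0, the median was -0.10, and 0 rose or fell by edgeR's test. The 3 with an unadjusted p under 0.05 were ID1, ID2 and ID3. The median was -0.04 after S100A8 and 0.01 after S100A8/S100A9. This list holds the members ID1, ID2, ID3, SMAD6 and SMAD7, so its median after S100A9 in part restates how the members were chosen. Without them, 3 of 10 genes lay above 0 after S100A9 and the median was -0.02, beside -0.08 after S100A8 and 0.00 after S100A8/S100A9. All 22 TGF-beta targets were tested, with 5 above 0 after S100A9 (median -0.05), 15 after S100A8 (0.02) and 15 after S100A8/S100A9 (0.04), and 0 passed in each. The matrix gene FN1, the most abundant at 2517 FPKM, differed by 0.02 (95% interval -0.04 to 0.09) after S100A9. CCN2, a matricellular growth factor gene, differed by 0.06. Medians over all genes were 0.00 in each comparison.

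**Figure D5:**
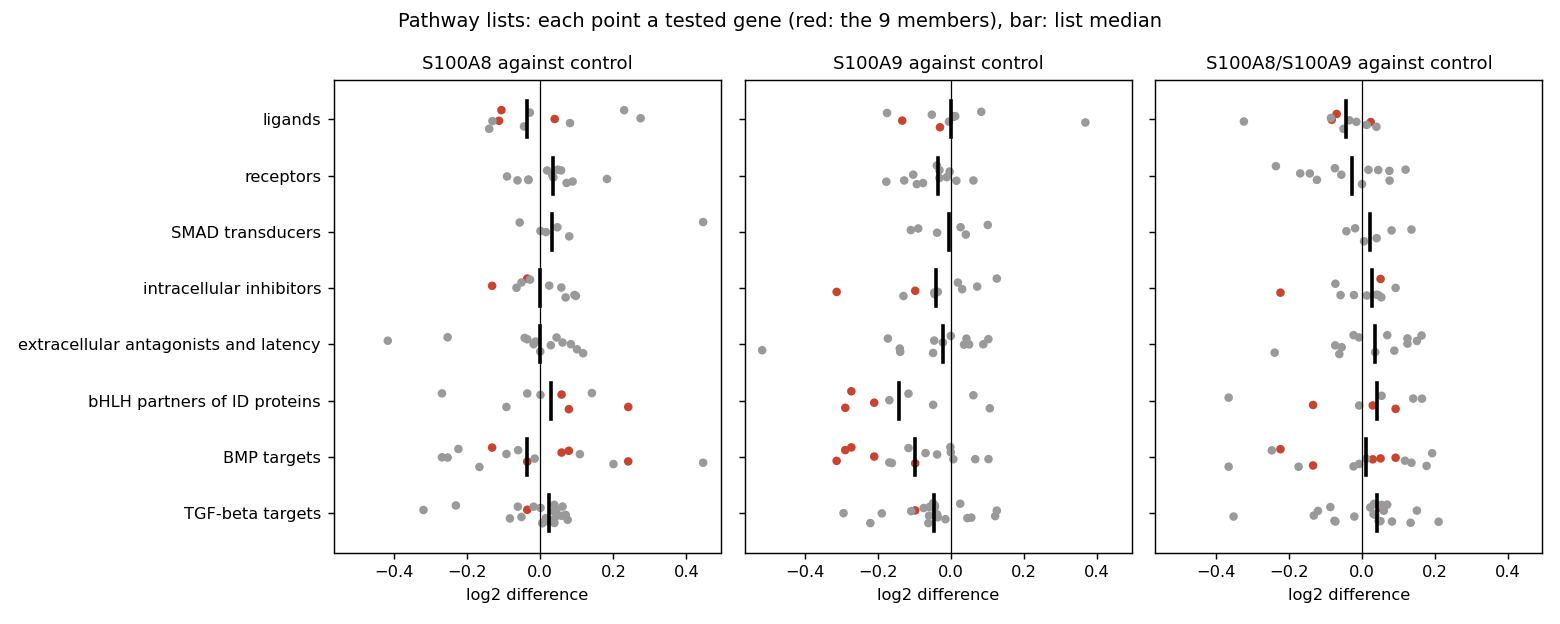
Fitted log2 difference from control (horizontal axis) of each tested gene in 8 pathway lists (rows) for the 3 treated groups (panels), with the list median as a black bar and members in red. After S100A9 the median of BMP targets is -0.10 (-0.02 without members) and that of TGF-beta targets -0.05, and no gene shown passed edgeR's test.

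Genes with a pattern like that of ID2 were ranked by Pearson's r of log2 CPM over the 12 libraries, among 9912 genes with a mean of at least 10 CPM. The highest were the keratin gene KRT7 (r = 0.908, Spearman's rho = 0.888), TMEM255A (0.907), the quinone reductase gene NQO1 (0.903), the adhesion receptor gene ADGRE5 (0.899) and MYADM (0.891). The lowest were the mineralocorticoid receptor gene NR3C2 (r = -0.937), SOD2 (-0.930), CXCL8 (-0.925), the iron transporter gene SLC11A2 (-0.904) and the kinase gene PIM2 (-0.903). The libraries share their groups, so a gene that differs in the S100A9 libraries alone ranks high at either end. Within groups, after removing group means, r was 0.607 for KRT7, 0.770 for NQO1, -0.695 for NR3C2, -0.388 for SOD2 and -0.268 for CXCL8.

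Among the members, ID2 correlated with ID1 at r = 0.756 (rho = 0.762) and with ID3 at r = 0.631 (rho = 0.601), and within groups at 0.296 and 0.344. With TGFB1 r was -0.546, and -0.415 within groups. ID1 was most like MYO5B, a myosin motor gene (r = 0.966, 0.935 within groups), IVNS1ABP (0.931) and ECI2 (0.927). For KRT7, the gene most like ID2, the value within groups was 0.607.

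Library totals ranged from 15882193 to 20748334 counts. No pair of replicates agreed within sampling noise: the chi-square per degree of freedom over genes was 2.35 to 5.38. The first principal component, 20.8% of the variance, was highest in replicate 2 of each group and did not separate the groups, and its part in the level of ID3 was not tested. On the second component, 16.4% of the variance, the S100A9 libraries lay above all others, at 4.56, 3.27 and 4.23. The nearest other library was S100A8/S100A9 replicate 1, at 3.14. The part of the second component in the member values was not tested.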

How the data were processed

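The authors deposited 1 table of 20286 genes with a count and an FPKM column for each of 12 libraries, per the file headers. The values deposited by the authors are expected counts, of which 12.0% of entries are not whole, and FPKM, which the authors scaled to length and depth. No aligner, counting tool or annotation is given in the sources used here. Mouse builds (GRCm38, mm10) stand in the submitters' processing notes, while all IDs are human, so the build behind the counts is not known. A name table gave symbols to 20228 IDs and GENCODE to 50 more, which left 8 unnamed.

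Rounded counts entered edgeR 4.0.16 (R 4.3.3): filterByExpr (minimum count 10), TMM, a robust quasi-likelihood fit of all 12 libraries with 1 coefficient per group and 8 residual degrees of freedom, and two-sided tests with Benjamini-Hochberg adjustment over 13512 genes at a threshold of 0.05. The fit was tested on simulated data. Alternatives used DESeq2 1.42.0, limma 3.58.1 on log2(FPKM + 1), DESeq2 size factors, no filter, no robust option, the 6 libraries compared, a replicate block and leaving out each library.

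The members and lists were chosen with earlier results of these data known. All members are named, and of each list the genes past the threshold and up to 3 with the highest FPKM; other genes were named after their values were seen. In the comparisons with control of S100A8 and S100A9, libraries with the same number deviated together from their group means (r = 0.105 to 0.279 and 0.131 to 0.412 over 9912 genes). In the others at least 1 pair had r under 0.1. The numbers may therefore pair some samples, but libraries with different numbers were not compared in this way. The reported fit does not use the numbers, and the replicate block is given as an alternative. Counting errors given cover sampling of counts only.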

Additional observations from a re-analysis of the deposited data

How the results depend on the processing

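Against control and between S100A8/S100A9 and S100A8, the count of members called was 0 in the reported fit and under each alternative run, the replicate block included. In S100A9 against S100A8 the count of 1 became 2 with the replicate block, which added ID3 (-0.52), and 0 with limma on log2(FPKM + 1) or on the 6 libraries compared; with a library left out it ranged from 0 to 1. In S100A9 against S100A8/S100A9 the count was 1 with the replicate block and 0 with the Wald test of DESeq2, with limma, on the 6 libraries compared and with each library left out (0 to 0). ID2 was chosen through both of these comparisons, so their counts of members called are a description and nothing is read from them. The causes were not tested. Over all genes, the 20 calls of S100A9 against control were 42 with the replicate block, 12 with limma, 25 with DESeq2 and 11 to 22 with a library left out. The 25 calls against S100A8 were 69 with the block, 10 with limma and 14 to 24 with a library left out, and the 34 against S100A8/S100A9 were 71, 13 and 14 to 31. DESeq2 called 1 gene in each of S100A8 and S100A8/S100A9 against control and S100A8/S100A9 against S100A8, where edgeR called 1, 0 and 0, and the block gave 2, 2 and 0. Of 624 values of single members under an alternative, 30 had another sign than the reported value, and 0 of these were called in either fit. Of the 5 genes most like ID2, 1 was among the top 5 by Spearman's rho and 0 by deviations from group means. SMAD6 and BMP4, with means of 82.2 and 62.6 counts, had counting errors of 11.03% and 12.6%, beside spreads within groups of 17.7% and 10.8%.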
